A study of Rattus norvegicus with 70 samples.

Results

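Livers of rats given a mixture of bisphenols (Mix) were compared with livers of rats given bisphenol A alone (BPA) at the same total dose, with males and females pooled. Of the 70 libraries of the series, 12 entered the comparison: every library labelled as liver and as Mix or BPA, 6 per treatment and 3 per sex and treatment. All were from Sprague-Dawley rats, an outbred strain, at postnatal day 63. BPA dams received 500 mg/kg/day of bisphenol A by mouth, starting on gestational day 6 and stopping on lactation day 6. Over the same days, the daily dose of Mix dams was made up of 160 mg/kg of BPA, 160 mg/kg of BPF (bisphenol F) and 180 mg/kg of BPS (bisphenol S). Pups of either treatment were then dosed directly with 250 mg/kg/day from postnatal day 7 to day 63. The 6 livers of vehicle rats, 3 per sex, are given beside the results as background values and entered no test here. The labels do not say that the rats of a group came from separate litters, so the p-values measure only the spread between these rats.

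Bisphenols are pairs of phenol rings joined by a bridge. The bridge is an isopropylidene group in BPA, a methylene group in BPF and a sulfonyl group in BPS. In the liver they are conjugated with glucuronic acid and sulfate, and several of them can bind nuclear receptors such as the oestrogen and pregnane X receptors. Rat liver is strongly sexually dimorphic: growth hormone, secreted in pulses in males and more steadily in females, sets the levels of many steroid-metabolizing enzymes. Because Mix and BPA rats shared the total dose, the comparison asks whether replacing part of the BPA with BPF and BPS changed liver RNA. It cannot assign a difference to BPF, to BPS or to the lower amount of BPA, since livers of rats dosed with only BPF or only BPS were not analysed here.

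Total counts lay between 6071150 and 9579227 in the 12 libraries. Levels below are CPM, counts scaled to a common library size. Males had 12.1 to 22.6 CPM of Eif2s3y, a gene on the Y chromosome, and females had 0, as labelled. The hepatocyte marker list, led by albumin and transferrin, summed to 157400 to 195500 CPM in the male libraries and 85190 to 134100 CPM in the female ones. Ribosomal RNA took 14.1% ± 5.85 of the counts in male BPA rats, 12.1% ± 7.56 in male Mix rats, 19.3% ± 0.70 in female BPA rats and 19.6% ± 1.22 in female Mix rats (SD, n = 3 each). The mean within-sex difference in that share had an exact two-sided permutation p of 0.735, where the smallest possible p was 0.005. The first principal component, with 37.3% of the variance, separated the sexes. On the second, with 11.4%, the score of male Mix replicate 1 was -52.4, against -29.7 to 26.2 for the other 11. Tnp1, a spermatid gene with no known role in liver, gave 2.25 to 15.2 CPM in male BPA, 15.1 to 37.8 in male Mix, 0.151 to 0.336 in female BPA and 1.62 to 5.54 in female Mix libraries; its part in the results was not tested.

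Few genes separated Mix from BPA when the sexes were pooled. The secreted kinase gene Pkdcc fell to 0.544 of its BPA level, and the scarcely expressed secernin gene Scrn1 rose. These were the only rows of 9761 with a Benjamini-Hochberg adjusted p below 0.05 in edgeR's quasi-likelihood test, 0.0205% of those tested and 0.0102% in each direction. At an unadjusted p below 0.05 there were 281 rows higher in Mix (2.88%) and 233 lower (2.39%), in all 5.27%. The median log2 difference of all rows was 0.00, and the median standard error was 0.22. In 7266 rows (74.4%) the 95% interval of the pooled difference lay within 1 log2 unit of 0 on either side, that is, within a doubling or a halving. A p above the threshold in the remaining rows does not show that the treatments acted alike. Within a sex the interval lay inside these bounds in fewer rows, 56.3% in males and 55.4% in females. For the sex difference it did so in 28.8%. Opposite differences in the sexes would average out in the pooled value.

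Pkdcc encodes a secreted protein tyrosine kinase that phosphorylates extracellular proteins. Its levels in male BPA rats were 90.2, 74.5 and 70.3 CPM, against 49.6, 37.7 and 51 CPM in male Mix rats. In female BPA rats they were 149.0, 127.3 and 139.5 CPM, against 80.51, 53.75 and 75.01 CPM in female Mix rats. Every Mix rat lay below every BPA rat of its sex. The log2 difference (Mix minus BPA) was -0.88 ± 0.14 (SE; 95% interval -1.18 to -0.58), with an adjusted p of 0.0450 from edgeR. It was -0.76 ± 0.20 in males and -0.99 ± 0.20 in females. Vehicle males ranged from 72.2 to 228 CPM and vehicle females from 48.9 to 79.2 CPM, so the vehicle level was nearer to the BPA rats in males and nearer to the Mix rats in females. The call held without male BPA replicate 3 or male Mix replicate 1, and was lost without any of the other 10 libraries, with adjusted p-values up to 0.246 and a log2 difference between -0.93 and -0.80.

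Scrn1, which encodes secernin 1, lies below the expression level set for named genes and was named after its values were seen. It had 1 count in the 6 BPA libraries together and 67 in the 6 Mix libraries. The row passed the count filter through its Mix libraries alone. The ratio and the lack of overlap given here are therefore no separate support for the call. The ratio of summed counts per scaled library size was 62.2 (95% interval 10.8 to 2494, counting error only). Mix males had 0.581, 1.63 and 1.25 CPM and Mix females 1.29, 1.76 and 1.42 CPM. The highest BPA rat, male replicate 1, had 0.130 CPM, so no Mix rat overlapped the BPA rats. Vehicle males, at 0.405 to 0.792 CPM, lay between the treated groups or among the Mix rats, and vehicle females reached only 0.142 CPM. The edgeR adjusted p was 0.0450; without male Mix replicate 1 the call stayed, and without any of the other 11 libraries it was lost (adjusted p up to 0.3 over all the alternatives).

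**Figure D1:**
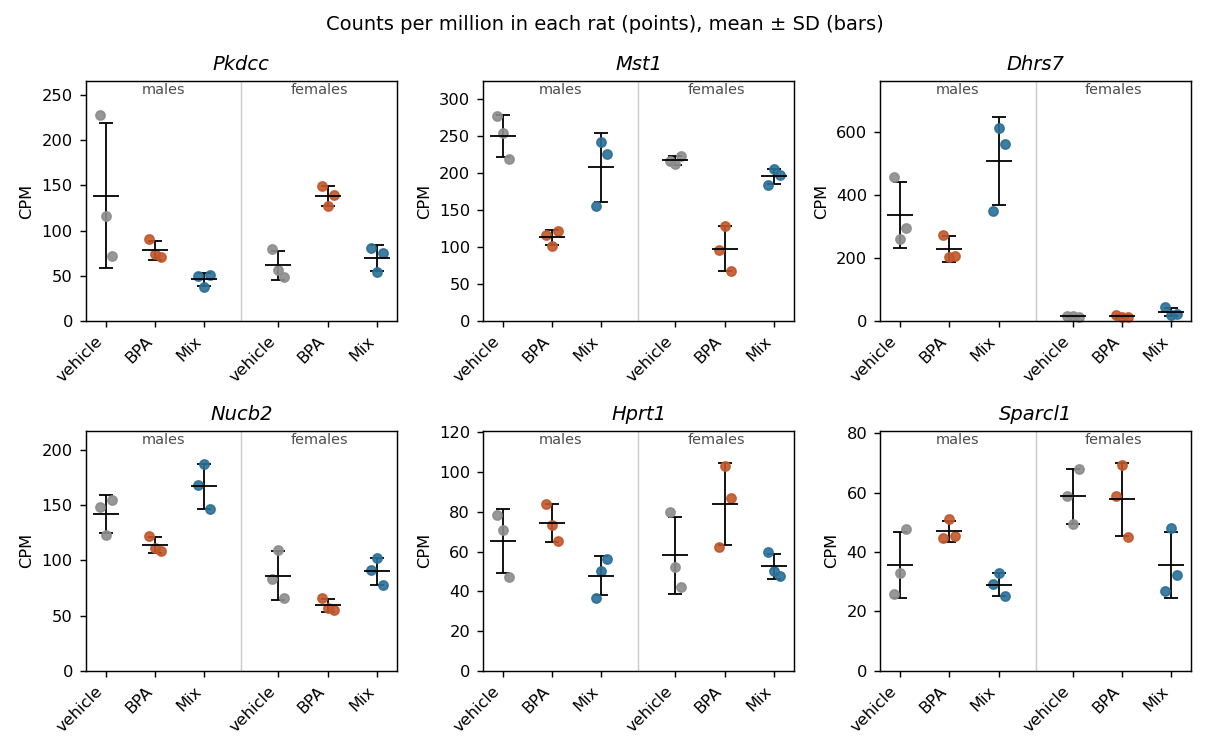
Levels of Pkdcc, Mst1, Dhrs7, Nucb2, Hprt1 and Sparcl1 in CPM (vertical axes, linear from 0) in each of the 18 liver libraries. Points are rats, black bars the mean ± SD of 3 rats, and the columns vehicle, BPA and Mix in males (left) and females (right). Mix rats lie below BPA rats of their sex for Pkdcc and above them for Mst1; of the 6 genes shown, only Pkdcc passed the test.

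Mst1 had the next smallest p among the genes expressed above the naming level (adjusted p = 0.0533 in edgeR, just outside the threshold). It encodes macrophage-stimulating protein, a growth factor relative that hepatocytes secrete into plasma. Male BPA rats had 116.2, 101.2 and 120.8 CPM and male Mix rats 154, 241 and 226 CPM. Female BPA rats had 95.5, 129 and 67.9 CPM and female Mix rats 184, 205 and 196 CPM. The groups did not overlap in either sex, and the log2 difference was 0.94 ± 0.16 (95% interval 0.60 to 1.28). Vehicle rats of both sexes, at 211 to 276 CPM, lay mostly above the Mix rats and entirely above the BPA rats.

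The other genes that the naming rule supplied by smallest p did not pass (adjusted p 0.237 to 0.357 in edgeR). Among those with higher estimates in Mix, Dhrs7, a short-chain dehydrogenase with much more RNA in male than in female liver, had a log2 difference of 1.04 ± 0.21. Its male levels were 227 ± 40.4 CPM in BPA and 507 ± 140 CPM in Mix, and its female levels 14.7 ± 3.93 and 27.9 ± 13.5 CPM (SD, n = 3 each). Hspb1, a small heat shock protein, had a difference of 1.30 ± 0.28, Nucb2, a calcium-binding protein and the precursor of nesfatin, one of 0.58 ± 0.12, and Acsm5, a mitochondrial acyl-CoA synthetase, one of 0.67 ± 0.15. Acsm5 ranged from 1.06 to 121 CPM over the vehicle rats, a wider spread than between Mix and BPA.

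Among those with lower estimates in Mix, the purine salvage gene Hprt1, often used as a reference gene for normalization, had a log2 difference of -0.66 ± 0.15. Its levels in males were 84.2, 73.3 and 65.1 CPM in BPA and 36.9, 50.4 and 56.0 CPM in Mix, and in females 62.2, 103 and 86.8 CPM in BPA and 59.7, 50.2 and 47.6 CPM in Mix. The groups did not overlap in either sex. The matrix-associated glycoprotein gene Sparcl1 had a difference of -0.69 ± 0.16, with -0.70 in males and -0.69 in females. Groups that stood apart in the same direction in both sexes were found for 71 of all rows tested (0.727%), 44 higher in Mix (0.451%) and 27 lower (0.277%). In males alone they stood apart for 10.5% of rows, 5.57% higher and 4.93% lower, and in females for 12.2%, 6.52% higher and 5.71% lower.

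The estimated differences in males and in females had little in common across genes. Over the 9761 rows the log2 differences of the sexes correlated with a Pearson r of 0.03 and a Spearman rho of -0.03, as a description; the points share the scaling and the dispersion estimate, and genes are not independent replicates. The sign was the same in both sexes in 4753 rows (48.7%). The median absolute log2 difference was 0.23 in males and 0.24 in females, below the median standard error of 0.31 in each. With estimates this imprecise, a correlation near 0 does not show that the responses of the sexes differed. Within males, 6 rows passed the threshold (0.0615%), 4 higher and 2 lower in Mix, and 5.13% had an unadjusted p below 0.05. Within females 4 rows passed (0.0410%), 2 higher and 2 lower, and 6.70% had an unadjusted p below 0.05. The genes called in 1 sex were taken up after their values were seen.

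**Figure D2:**
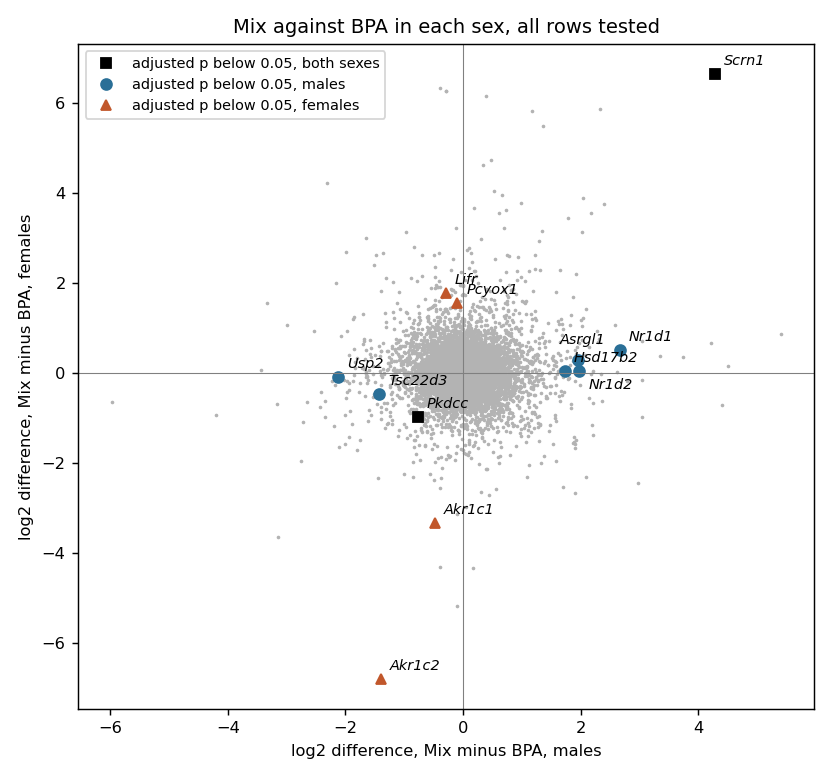
Log2 difference Mix minus BPA in males (horizontal axis) against females (vertical axis) for the 9761 rows tested, as grey points. Black squares mark the 2 rows called with the sexes pooled, blue circles the 6 called in males and orange triangles the 4 called in females; the blue circles lie along the horizontal axis, and Akr1c1 and Akr1c2 far below it.

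In males, the genes called included a pair of core clock repressors. Nr1d1 and Nr1d2 encode REV-ERB alpha and beta, nuclear receptors that repress Bmal1 (listed as Arntl) and are themselves activated by the BMAL1 and CLOCK proteins through E-boxes in their promoters, so that their RNA cycles strongly in liver over the day. The hour at which the rats were killed is not given in the labels. Promoters of this loop are printed to show the elements that textbook accounts of it rest on; they come from RefSeq on the build GRCr8 and run from 250 bases before to 50 after a gene start. Capitals mark the E-box CACGTG or the receptor element AGGTCA, searched on both strands, with no overlap between matches.
Nr1d1 promoter, chr10:84229405-84229704, minus strand: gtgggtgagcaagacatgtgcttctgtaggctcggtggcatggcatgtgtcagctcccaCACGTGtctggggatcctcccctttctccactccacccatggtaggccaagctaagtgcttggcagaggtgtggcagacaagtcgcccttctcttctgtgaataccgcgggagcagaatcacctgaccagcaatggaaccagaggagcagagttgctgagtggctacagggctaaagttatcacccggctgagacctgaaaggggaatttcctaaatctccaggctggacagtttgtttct
Nr1d2 promoter, chr15:9954784-9955083, plus strand: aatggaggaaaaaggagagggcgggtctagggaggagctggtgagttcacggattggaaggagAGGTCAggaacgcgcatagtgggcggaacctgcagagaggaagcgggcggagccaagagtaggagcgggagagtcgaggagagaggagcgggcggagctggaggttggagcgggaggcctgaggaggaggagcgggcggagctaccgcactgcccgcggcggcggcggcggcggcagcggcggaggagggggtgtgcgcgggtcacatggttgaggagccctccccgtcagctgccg
Bmal1 promoter, chr1:176766078-176766377, plus strand: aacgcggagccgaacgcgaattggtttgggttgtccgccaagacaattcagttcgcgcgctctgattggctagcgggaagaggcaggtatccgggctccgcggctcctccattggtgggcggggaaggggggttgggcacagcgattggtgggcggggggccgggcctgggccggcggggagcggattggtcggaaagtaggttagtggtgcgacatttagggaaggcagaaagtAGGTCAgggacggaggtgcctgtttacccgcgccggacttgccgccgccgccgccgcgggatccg
The Nr1d2 window holds AGGTCA but no CACGTG, so the E-box of the account above is not seen in it. Nr1d1 has a second listed start, whose window holds neither element. Of 33469 such windows, 2148 (6.42%) hold CACGTG and 5415 (16.2%) hold AGGTCA, so a match is common and describes only the letters in the window. Promoters were listed for 6 of the 7 clock genes looked up; Tef also holds an E-box, Dbp and Per2 hold neither element, and Cry1 has no entry.

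Nr1d1 stood at 4.67, 0.624 and 4.47 CPM in male BPA rats and at 22.1, 18.8 and 20.9 CPM in male Mix rats. All Mix males lay above all BPA males, and above the vehicle males, which had 1.38 to 3.46 CPM. It rose by 2.67 ± 0.47 on the log2 scale (adjusted p = 0.0411, edgeR), or 6.37-fold. Female BPA rats had 3.54, 1.68 and 2.57 CPM and female Mix rats 3.56, 4.03 and 3.56 CPM. These also stood apart, narrowly, with a log2 difference of 0.51 ± 0.48 that did not pass.

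Nr1d2 stood at 13.2, 7.61 and 8.64 CPM in male BPA rats and at 47.7, 26.3 and 42.5 CPM in male Mix rats, with 12.8 to 25.5 CPM in vehicle males. It rose 3.95-fold (log2 1.98 ± 0.34, adjusted p = 0.0411, edgeR), with no overlap between groups. In females the difference was 0.04 ± 0.33, and the groups overlapped. The test of the sex difference itself did not pass for either gene (edgeR adjusted p 0.586 for Nr1d1 and 0.463 for Nr1d2), so a response limited to males was not shown.

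Other clock genes were not called in edgeR; DESeq2 also called Cry1 in males. Of the 19 on the list 12 were tested, and Nr1d1 and Nr1d2 were the only members called in males, beside 0.0615% of all rows. At an unadjusted p below 0.05, 4 were higher and 3 lower in males, where 2.71% and 2.42% of all rows were. Arntl, the activator that the REV-ERBs repress, had 35.0, 30.6 and 28.8 CPM in male BPA rats and 9.88, 15.7 and 20.1 CPM in male Mix rats, without overlap, and a log2 difference of -1.04 that did not pass. Cry1, a repressor of the same loop and a target of REV-ERB, had 9.21, 17.6 and 10.3 CPM against 6.39, 3.25 and 4.47 CPM, again without overlap (log2 difference -1.39 ± 0.32, edgeR adjusted p = 0.208). Dbp, an output gene of the clock, had a difference of 0.65 and Per2 one of -0.28 in males. In females 1 clock gene, Clock, had an unadjusted p below 0.05, beside 6.70% of all rows. The list median was 0.26 in females, against 0.00 for all rows, and in males it was 0.00 for both.

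**Figure D3:**
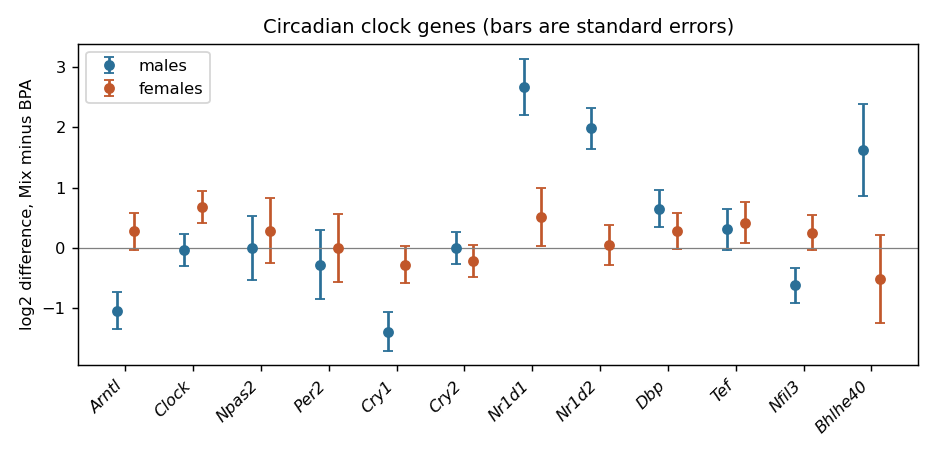
Log2 difference Mix minus BPA (vertical axis) of the 12 clock genes tested, in males (blue) and females (orange); points are estimates and bars standard errors from 3 rats per group. Nr1d1 and Nr1d2 lie at 2.67 and 1.98 in males, while Arntl and Cry1 lie at -1.04 and -1.39; in females all 4 lie between -0.28 and 0.51.

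The males' other 4 called genes were Hsd17b2, Asrgl1, Usp2 and Tsc22d3. Hsd17b2 oxidizes oestradiol and testosterone to their less active keto forms. It stood at 54.3, 38.8 and 40.1 CPM in male BPA rats and at 184, 116 and 142 CPM in male Mix rats. Every Mix male lay above every BPA male and above the vehicle males (57.4 to 78.4 CPM). It rose 3.32-fold (log2 1.73 ± 0.21, 95% interval 1.28 to 2.18, adjusted p = 0.00283, edgeR). This call held under all 18 alternatives tried, with adjusted p-values up to 0.0366. In females all 6 treated rats lay between 23.1 and 28.8 CPM, and the difference was 0.04 ± 0.21 (95% interval -0.41 to 0.48). The sex difference of 1.69 ± 0.30 had an adjusted p of 0.0890 in edgeR, outside the threshold; DESeq2 called it.

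Asrgl1, an asparaginase, rose from 1.95, 4.37 and 2.98 CPM in male BPA rats to 14.07, 11.11 and 11.03 CPM in male Mix rats (log2 1.95 ± 0.32, adjusted p = 0.0379, edgeR). Usp2, a deubiquitinase whose liver RNA is under clock and glucocorticoid control, fell from 17.9, 22.8 and 26.8 CPM to 3.604, 3.522 and 8.222 CPM (log2 -2.12 ± 0.33, adjusted p = 0.0376, edgeR). Tsc22d3, the glucocorticoid-induced leucine zipper gene, fell from 41.6, 52.4 and 40.4 CPM to 15, 18.7 and 16.3 CPM (log2 -1.43 ± 0.25, adjusted p = 0.0411, edgeR). For all 3 genes the male groups stood apart. In females their groups overlapped, and none was called. Tsc22d3 stood at 57.4, 80.0 and 82.1 CPM in female BPA rats and at 52.9, 35.1 and 70.0 CPM in female Mix rats. Its pooled log2 difference was -0.94 (adjusted p = 0.312, edgeR). None of the 3 passed edgeR's test of the sex difference, so a response limited to males was not shown. DESeq2 called the sex difference for Usp2. Vehicle males, at 35.6 to 73.9 CPM for Usp2 and 53.4 to 116 CPM for Tsc22d3, lay above both treated groups. Apart from Hsd17b2, no called male gene passed when male BPA replicate 1 or male Mix replicate 1, the library apart on the second component, was left out. The call of Usp2 was also lost without male BPA replicate 2 or 3 or male Mix replicate 2, and that of Asrgl1 without male BPA replicate 3, male Mix replicate 2 or 3 or female Mix replicate 2. Nr1d1 lost its call without male BPA replicate 3, male Mix replicate 2 or 3 or female Mix replicate 1 or 2. Nr1d2 lost it without male BPA replicate 2 or 3, male Mix replicate 3, female BPA replicate 1 or female Mix replicate 1 or 2, and Tsc22d3 without male BPA replicate 2 or 3, male Mix replicate 2 or 3, female BPA replicate 2 or female Mix replicate 1. Over the 18 alternatives the log2 differences ran from 1.70 to 2.30 for Asrgl1, -2.65 to -1.91 for Usp2, -1.52 to -1.30 for Tsc22d3, 2.17 to 3.05 for Nr1d1 and 1.81 to 2.26 for Nr1d2.

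Glucocorticoid-induced genes, the list that holds Usp2 and Tsc22d3, had mostly lower estimates in Mix males. Of 22 tested, edgeR called 2 lower in males, beside 0.0205% of all rows. At an unadjusted p below 0.05, 9 were lower and 2 higher, beside 2.42% and 2.71% of all rows. The median was -0.37 in males and -0.19 in females. The metallothionein genes Mt1a and Mt2A, which bind zinc and copper, had male differences of -1.43 and -1.77 and female differences of -0.47 and -0.44. Fkbp5, a cochaperone of the glucocorticoid receptor, differed by -0.92 in males and 0.35 in females. Against that direction, Sgk1, a kinase, and Errfi1, a feedback inhibitor of EGF receptor signalling, had male differences of 1.15 and 0.83. None of these 5 passed in edgeR; DESeq2 called Mt1a and Errfi1 in males.

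Genes of the integrated stress response and of serine synthesis had higher estimates in Mix males. Of 36 tested members of the list for endoplasmic reticulum stress and amino acid response, none was called in edgeR's test with the sexes pooled, in males or in females. At an unadjusted p below 0.05, 10 were higher and 0 lower in males, beside 2.71% and 2.42% of all rows, and 2 were higher and 3 lower in females, beside 3.58% and 3.12%. With the sexes pooled 6 were higher and 0 lower, beside 2.88% and 2.39%. DESeq2 called 1 member, Atf4 in males. The list median was 0.36 in males and 0.05 in females. Psat1, of serine synthesis, had 0.130, 0.874 and 0.894 CPM in male BPA rats and 8.14, 3.93 and 13.5 CPM in male Mix rats, without overlap, with 2.59 to 7.77 CPM in vehicle males. Atf4, the transcription factor at the centre of this response, had 122, 133 and 160 CPM against 250, 180 and 276 CPM in males, and a female difference of -0.30. The chaperone genes Creld2 and Calr differed by 0.44 ± 0.16 and 0.39 ± 0.16 with the sexes pooled.

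In females, the largest differences among called genes were in a pair of aldo-keto reductases. Akr1c1 and Akr1c2 belong to the family that reduces ketosteroids and other carbonyls; its members are close in sequence, and how reads matching several of them were counted is not given in the sources used here, so the split between them is uncertain. Akr1c1 had 50.9, 47.2 and 75.9 CPM in female BPA rats and 6.25, 4.15 and 6.76 CPM in female Mix rats. Akr1c2 had 124.2, 97.97 and 263.3 CPM against 1.19, 0.629 and 2.49 CPM. For both genes all Mix females lay far below all BPA females. The log2 scale puts the fall of Akr1c1 at -3.33 ± 0.32 (adjusted p = 8.0e-05, edgeR) and that of Akr1c2 at -6.80 ± 0.71 (adjusted p = 0.000145, edgeR).

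Vehicle females did not have a common level of either gene. Akr1c2 stood at 1.40, 256 and 2.13 CPM and Akr1c1 at 5.83, 42.2 and 5.26 CPM in vehicle females, so replicates 1 and 3 lay near the Mix rats and replicate 2 near the BPA rats. Both calls held without any one of the 12 libraries. With the 6 vehicle libraries added to the fit, which then share the estimate of spread, neither passed (edgeR adjusted p 0.0626 for Akr1c1 and 0.106 for Akr1c2), nor did any other row in females or for the sex difference.

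In males Akr1c2 had 230, 174 and 154 CPM in BPA rats and 13.83, 86.03 and 112.8 CPM in Mix rats, without overlap, and a log2 difference of -1.39 ± 0.52 that did not pass. Akr1c1 overlapped between the male groups (-0.48 ± 0.28). These genes were the 2 rows that passed the test of the sex difference (0.0205% of rows, where 300 or 3.07% had a positive and 324 or 3.32% a negative male minus female difference at an unadjusted p below 0.05, 6.39% in all). The male minus female difference was 2.85 ± 0.42 for Akr1c1 (adjusted p = 0.0272, edgeR) and 5.40 ± 0.85 for Akr1c2 (adjusted p = 0.0337, edgeR). These sex difference calls rest on few libraries. That of Akr1c1 held in 5 of 12 fits leaving out 1 library and that of Akr1c2 in 4, and both were lost without any single male BPA library, without male Mix replicate 2 or 3, and without female Mix replicate 1 or 2. Without female BPA replicate 1 that of Akr1c2 alone was lost.

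Lifr and Pcyox1 rose in Mix females. Lifr, the receptor of leukaemia inhibitory factor, has far more RNA in female than in male rat liver. It stood at 64.4, 46.6 and 41.1 CPM in female BPA rats and at 176, 219 and 123 CPM in female Mix rats, close to the vehicle females (127.3, 188.5 and 239.6 CPM). All Mix females lay above all BPA females, and the log2 difference was 1.76 ± 0.28 (adjusted p = 0.0288, edgeR). Pcyox1, which breaks down prenylated cysteine, stood at 6.45, 5.38 and 6.80 CPM against 20.91, 14.98 and 18.87 CPM (log2 1.56 ± 0.26, adjusted p = 0.0402, edgeR), also without overlap. The call of Lifr was lost without male BPA replicate 2, female BPA replicate 2 or 3, or female Mix replicate 1 or 2. The call of Pcyox1 held in 3 of 12 such fits, those without male BPA replicate 3 or male Mix replicate 2 or 3.

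**Figure D4:**
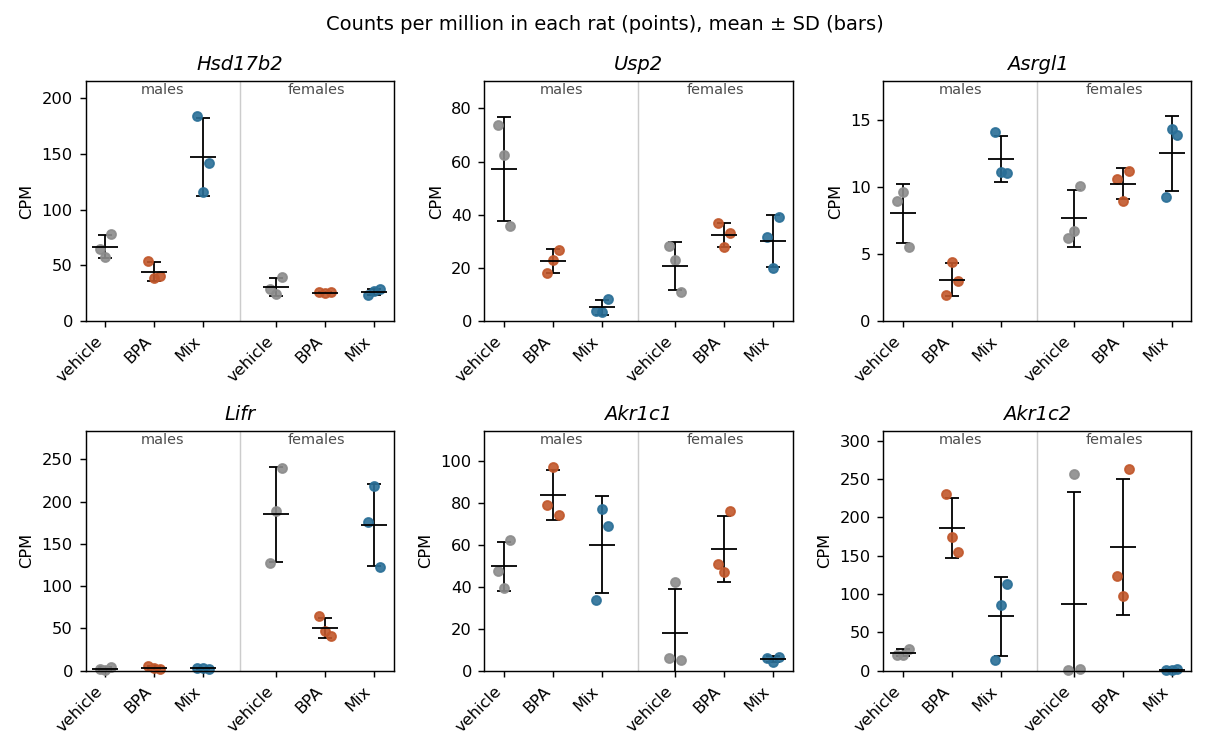
Levels in CPM (vertical axes, linear from 0; SD bars end at 0) of 6 genes called in males or in females, in each of the 18 liver libraries. Points are rats, black bars the mean ± SD of 3 rats, and the columns vehicle, BPA and Mix in males (left) and females (right). Hsd17b2 lies at 116 to 184 CPM in Mix males alone, and Akr1c2 at 0.629 to 2.49 CPM in Mix females, with 1 vehicle female at 256 CPM.

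Of 26 steroid dehydrogenases and reductases tested, the list that holds Hsd17b2, Akr1c1 and Akr1c2, these 3 were the members edgeR called in either sex. Of all rows, 0.0615% were called in males and 0.0410% in females. With the sexes pooled edgeR called none, with 3 higher and 3 lower at an unadjusted p below 0.05, beside 2.88% and 2.39% of all rows. DESeq2 called Akr1c2 pooled and also Hsd3b1 in females. Of the sex-biased lists, edgeR called Lifr (higher in Mix) and Akr1c1 (lower) in females, both listed as female-biased. Of the 20 rows of that list tested, 7 were higher and 2 lower in females at an unadjusted p below 0.05. Of all rows, 3.58% were higher and 3.12% lower. Akr1c1 was not female-biased in these livers: vehicle males had 39.5 to 62.3 CPM and vehicle females 5.26 to 42.2 CPM. DESeq2 also called Krt23 of the female-biased list in females. Of the male-biased list, DESeq2 called Dhrs7 pooled and in males and Obp3 and LOC259246 in females. Many male-biased genes, such as Mup4, Mup5 and Obp3, stood near 0 CPM in treated females and far higher in treated males, so no count over that list is given for females. Obp3 stood at 0.104, 0.112 and 0.907 CPM in female BPA rats and at 0.970, 1.64 and 2.25 CPM in female Mix rats, against 9447 to 13560 CPM in treated males. The urinary protein genes are near-identical copies, so their split is uncertain. Egfr, the epidermal growth factor receptor gene, named after its values were seen, stood at 11.8, 13.7 and 11.8 CPM against 29.8, 33.5 and 35.8 CPM in females, without overlap; it did not pass in edgeR and did in DESeq2.

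Bile acid genes were not called in edgeR; DESeq2 called 1, Nr0b2 in males. Cyp7a1, which catalyses the first and limiting step from cholesterol to bile acids, had 6.09, 8.24 and 12.7 CPM in male BPA rats and 8.60, 19.6 and 53.8 CPM in male Mix rats, against 83.4 to 173 CPM in vehicle males. Both treated groups of males lay below vehicle and overlapped each other. In females the BPA rats had 7.59, 70.5 and 29.2 CPM and the Mix rats 149, 44.3 and 46.2 CPM, overlapping too. Nr0b2, the small heterodimer partner that represses Cyp7a1, had 21.6, 10.5 and 18.8 CPM in male BPA rats and 40.7, 41.5 and 36.6 CPM in male Mix rats, without overlap. Cyp27a1, of the alternative pathway, had a pooled difference of -0.48 ± 0.18. Of 23 bile acid genes tested, 2 were higher and 2 lower at an unadjusted p below 0.05 in the pooled fit. Of all rows, 2.88% were higher and 2.39% lower. The pooled median was 0.01.

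Genes of glutathione metabolism and of the antioxidant response were not called in edgeR either; DESeq2 called 1, Mgst2 in females. Of 35 glutathione and NRF2 genes tested, 11 had lower estimates in Mix females at an unadjusted p below 0.05 and 0 higher. Of all rows, 3.12% were lower and 3.58% higher. In males 2 were higher and 0 lower, beside 2.71% and 2.42% of all rows. The medians were -0.26 and 0.18. Mgst2, a microsomal glutathione transferase, stood at 390, 206 and 284 CPM in female BPA rats and at 129, 153 and 174 CPM in female Mix rats, without overlap. Gclc, the catalytic subunit of glutathione synthesis, differed in the other direction (0.57 ± 0.18 pooled), and Gsta3 by -1.08 ± 0.34. Reads of glutathione transferases may be split between copies. For the quinone reductase gene Nqo1 the female BPA rats ranged from 21.01 to 89.11 CPM and the Mix rats from 6.36 to 25.3 CPM.

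Drug-metabolizing cytochromes gave no call among 30 tested in edgeR, and DESeq2 called 0. At an unadjusted p below 0.05, 2 were higher and 0 lower in the pooled fit, beside 2.88% and 2.39% of all rows. In females 4 were higher and 2 lower, beside 3.58% and 3.12%, and in males 0 were higher and 0 lower. Cyp2d3 and Cyp2d5 had pooled differences of 0.45 ± 0.16 and 0.42 ± 0.21, and the male-biased Cyp3a2 one of 0.68 ± 0.31. Cyp2b1, the classical target of the constitutive androstane receptor, varied more within a group than between groups in females: BPA rats had 225, 22.3 and 2.87 CPM and Mix rats 2.48, 1.39 and 8.55 CPM. Of 15 receptors for bisphenols and xenobiotics that could be tested, none was called by edgeR or DESeq2. In the pooled fit 1 had an unadjusted p below 0.05, beside 5.27% of all rows. The pregnane X receptor gene Nr1i2 had 50.8, 48.0 and 65.5 CPM in male BPA rats and 42.7, 29.1 and 37.1 CPM in male Mix rats. The oestrogen receptor genes did not reach the count needed for testing.

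Markers of immune cells had lower estimates in Mix females. Of 19 Kupffer cell and macrophage markers, 10 had an unadjusted p below 0.05 and a lower estimate in females and 0 a higher one, beside 3.12% and 3.58% of all rows, and none was called by edgeR; DESeq2 called 1, Gpnmb. Their summed level, led by C1qb and Cd5l, was 993 to 1275 CPM in female BPA rats, 785 to 820 CPM in female Mix rats and 991 to 1085 CPM in vehicle females, while male BPA rats had 807 to 965 CPM and male Mix rats 840 to 1018 CPM. None of the 19 markers was at 0 in all 12 libraries. Lymphocyte and granulocyte markers, led by Ccl5 and Ptprc, summed to 61.97 to 111.6 CPM in female BPA rats. Female Mix rats had 41.66 to 45.58 CPM and vehicle females 59.91 to 90.57 CPM. Male BPA rats had 51.98 to 64.4 CPM and male Mix rats 62.45 to 73.7 CPM. Of 10 such rows tested, 4 were lower and 0 higher in females at an unadjusted p below 0.05, beside 3.12% and 3.58% of all rows. None was called by edgeR, and DESeq2 called 1, Gzma in females. Erythroid markers, led by the alpha globins, summed to 11590 to 14330 CPM in male BPA, 7553 to 11650 CPM in male Mix and 4924 to 10910 CPM in male vehicle rats. In females the sums were 6046 to 11040 CPM in BPA, 4156 to 7803 CPM in Mix and 4740 to 6306 CPM in vehicle rats. Of 9 erythroid rows tested, 5 were lower and 0 higher in the pooled fit at an unadjusted p below 0.05, beside 2.39% and 2.88% of all rows, and neither edgeR nor DESeq2 called any. These rows are not separate signals. In male BPA rats, for example, Hba1 had 5952, 5510 and 5203 CPM and Hba2 5660, 5195 and 4936 CPM. Fewer cells of a type and less RNA per cell cannot be told apart in whole liver, and the part of these markers in the other results was not tested.

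Over the 29 pathway lists the median pooled log2 difference lay between -0.32, for glucocorticoid-induced genes, and 0.49, for male-biased genes, beside 0.00 for all rows. With the sexes pooled, edgeR called no member of these lists or of the 14 lists of cell markers among its 2 called rows, with 514 of all rows at an unadjusted p below 0.05. DESeq2 called 14 rows, among them the list members Akr1c2, Tsc22d3, Dhrs7, Hspb1 and Oaz3, a germ cell marker. In males the pathway medians ran from -0.37 to 0.36 and in females from -0.32 to 0.86, the last for male-biased genes, many of which are near 0 in females. The lists of germ cell, pancreas, thyroid and kidney markers rest on 4 to 8 rows tested each. Their pooled medians were 1.795, 1.051, 1.972 and 0.41, all but the last above every pathway median. All 7 germ cell rows tested, of 17 listed, had higher estimates in Mix in both sexes. The other listed rows did not pass the count filter. A row with few counts can pass it through its Mix libraries alone, so the shared direction is no separate support. In the pooled fit, 4 of them were higher and 0 lower at an unadjusted p below 0.05, beside 2.88% and 2.39% of all rows. The part of these transcripts in the results was not tested. Medians of rows with few counts depend on the prior count and are no bound.

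**Figure D5:**
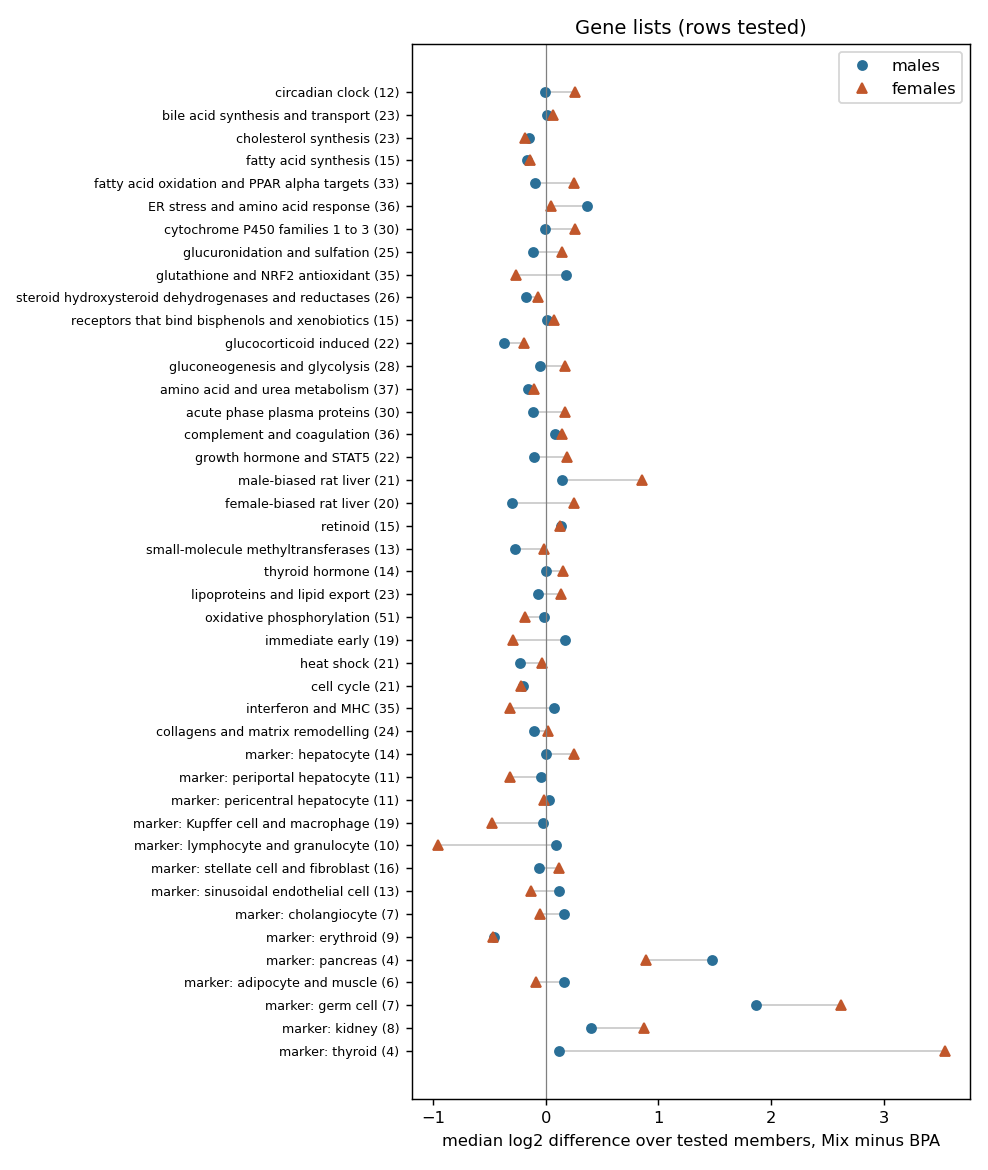
Median log2 difference Mix minus BPA (horizontal axis) over the tested members of each gene list (vertical axis, number of rows tested in brackets), in males (blue circles) and females (orange triangles). Most pathway lists lie near 0 in both sexes. Glucocorticoid-induced genes lie at -0.37 in males, macrophage markers at -0.47 in females and male-biased genes, many near 0 CPM in females, at 0.86 in females. Farthest from 0 are marker lists with 4 to 7 rows tested. Thyroid markers lie at 3.54 and germ cell markers at 2.62 in females, and germ cell markers at 1.86 and pancreas markers at 1.47 in males.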

How the data were processed

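Per the labels' protocols, total liver RNA was taken up in TRIzol and made into QuantSeq libraries, which sample the 3′ end of each messenger RNA. FastQC, Bowtie2, bedtools, edgeR and the build rn6 are listed without versions, per the submitters' processing notes. The authors deposited whole-number counts per gene, 17048 rows, of which 149 symbols fill 316 rows and were kept apart. The counting of strand, overlapping genes and multiply aligned reads is not given in the sources used here.

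Groups follow the tissue, sex and treatment in the labels. Counts were scaled by TMM over 18 livers, filtered with filterByExpr and fitted over the 12 Mix and BPA libraries with edgeR 4.0.16 (R 4.3.3; limma 3.58.1), by quasi-likelihood with sex as an additive term; sex-specific differences and their contrast came from a fit with 4 groups. P-values were Benjamini-Hochberg adjusted over all 9761 rows, with a threshold of 0.05. Levels are TMM-scaled CPM computed here. Alternatives included DESeq2 1.42.0, other scaling and filters, and leaving out each library. The scripts were tested on simulated data. Depth, 6071150 to 9579227 counts, covers counting error only.

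No libraries were near duplicates, and replicate numbers did not pair rats: same-numbered rats had deviations correlated at -0.036 to 0.081. Mix and BPA formed 1 pair of treatments compared.

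Genes named were up to 15 per direction past the threshold (same sign in both sexes, mean log2 CPM no lower than 2), filled to 5 by smallest p; the 3 members with smallest p of 6 lists; and genes passing the sex difference. Others named were chosen after their values were seen: list members, Scrn1, Tnp1 and genes called in 1 sex. The comparison, its genes and its lists were chosen with earlier results of these data known.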

Additional observations from a re-analysis of the deposited data

Results flagged for a closer look

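In 68 checks of a treatment arm of 6 rats, each on log2 CPM centred within sex or on a library measure, 4 rats lay farther from the rest than Dixon's 95% value allows; chance alone gives about 1 in 20. For Mst1, male Mix replicate 1 was the low rat of the Mix arm at 154 CPM. For Nr1d1, male BPA replicate 2 was low in the BPA arm at 0.624 CPM. For Scrn1, male BPA replicate 1 was the high rat of the BPA arm at 0.13 CPM, its only count, and male Mix replicate 1 the low rat of the Mix arm at 0.581 CPM.

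The response to Mix against BPA differed between the sexes in the test of the difference for Akr1c1, by 2.85 on the log2 scale (male minus female), and for Akr1c2, by 5.40. Both genes also differed widely among the vehicle females, with replicate 2 far above replicates 1 and 3.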

How the results depend on the processing

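With the sexes pooled, 2 rows were called in the reported fit, 14 with DESeq2, 24 with no filter on low counts, 8 with limma voom and quality weights, 1 with the ribosomal RNA share as a covariate and 0 with no sex term (386 at an unadjusted p below 0.05 in edgeR). In males the count was 6, and 31 with DESeq2 and 67 with no filter; in females it was 4, and 28 and 83. For the sex difference it was 2, and 16 and 66. With all 18 livers in the fit, 0 rows were called in females (745 unadjusted) and 0 for the sex difference (688 unadjusted), while DESeq2 gave 28 and 16. Every row called in the reported fits was also called by DESeq2. With the replicate block, the counts were 1 pooled (Tnp1), 3 in males, 8 in females and 1 for the sex difference. The rats share only a number, so these fits are no paired analysis. Leaving out 1 library gave 0 to 3 calls pooled, 1 to 8 in males, 2 to 7 in females and 0 to 7 for the sex difference; fits with 0 calls had 445 to 727 rows at an unadjusted p below 0.05. The mean difference in ribosomal RNA share, -0.841 percentage points, ran from -2.74 to 1.04 over these fits and changed sign without male BPA replicate 1 (0.43) or male Mix replicate 3 (1.04). Over the named genes, 706 refitted values kept both sign and side of the threshold, 101 lost the call, 25 gained it and 0 changed sign. Except where fewer libraries were fitted, the cause of a changed count was not tested. With 3 rats per sex and treatment, the standard error within a sex had a median of 0.31, which limits the detectable difference.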
